A study of Mus musculus with 42 samples.

Results

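Skeletal muscle of KK/Ay mice that received a high-fat diet and L-NAME was compared with skeletal muscle of KK/Ay mice that did not. The first set is the diabetic macroangiopathy group (group C) and the second the spontaneous diabetic group (group A). The arrays were chosen by their titles, macroangiopathy_muscle 1 to 3 and diabetic_muscle 1 to 3, which gives 6 of the 42 arrays of the series, and every gene measured on them was considered. KK/Ay mice are obese and diabetic because of the Ay mutation at the agouti locus on the KK background. Both groups are KK/Ay, so strain and diabetes are shared. According to the methods the mice were male and entered the study at 18 to 20 weeks of age, and group C drank L-NAME, which blocks nitric oxide synthases, and ate a high-fat diet for 8 weeks. Both groups were then given saline by gavage for 8 weeks. The 2 agents were always given together, so their shares in a difference cannot be told apart, and the muscle that was dissected is not named. Each array holds RNA of 1 mouse, and 3 mice per group limit the precision.

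Nitric oxide is made from arginine by nitric oxide synthases, and it relaxes smooth muscle through soluble guanylate cyclase. In skeletal muscle it is made mainly by the neuronal form, which sits at the dystrophin complex, and in the vessels between the fibres by the endothelial form. A high-fat diet supplies fatty acids that activate PPAR nuclear receptors in muscle, whose targets take up and oxidize fat. Skeletal muscle also switches between slow oxidative and fast glycolytic contractile proteins, stores glycogen, and degrades its own proteins through the ubiquitin ligases MuRF1 and atrogin-1 when glucocorticoids rise or food is scarce.

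The arrays were single-colour Agilent mouse arrays, and values are log2 intensities after background correction and quantile normalization. Between 56% and 64.6% of the 41174 probes were well above background on each of the 6 arrays. All 10 defining markers of skeletal muscle were above background on each of them, and none was called. The brightest lie at the top of the normalized scale, where values are set by rank (Acta1 at 17.62 on all 3 macroangiopathy arrays). The nonagouti gene (a), which the yellow allele drives in tissues that normally lack it, was at 9.94, 9.04 and 9.37 in group A and 9.22, 8.97 and 9.71 in group C, and the groups overlapped. Array 2 of both groups stood apart: its median correlation with the other 5 arrays was 0.9824 in group A and 0.9839 in group C, and at least 0.9921 for the other 4. On these 2 arrays the summed intensity of the 10 skin and epithelial markers was 37700 and 47700, against 1180 to 9540 on the rest, and that of the 10 adipocyte markers was 32600 and 41500, against 18400 to 23100. The 3 diabetic arrays lay on slide 1, macroangiopathy arrays 1 and 2 on slide 2 and macroangiopathy array 3 on slide 3. Slide and group therefore overlap. They could be separated in part only in a fit of 12 arrays that adds 2 treated groups of the same model, SHENQI and yangyinyiqi. The yangyinyiqi arrays all lay on slide 3, so they add to the estimate of spread but do not separate slide from group. That fit of 12 arrays ties slide 1 to slide 2 through a single group, SHENQI, with 1 array on slide 1 and 2 on slide 2. Every difference with the slide block therefore also rests on that 1 SHENQI array of slide 1. SHENQI array 3, on slide 2, had high adipocyte signal (Adipoq at 13.5, against 10.6 and 11.3 on the other SHENQI arrays), and with the block the median difference was -1.77 over adipocyte markers and -0.83 over lymphocyte markers. The block was therefore also fitted without that array, a fit chosen after the values were seen, and these medians were then -0.28 and -0.38.

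**Figure D1:**
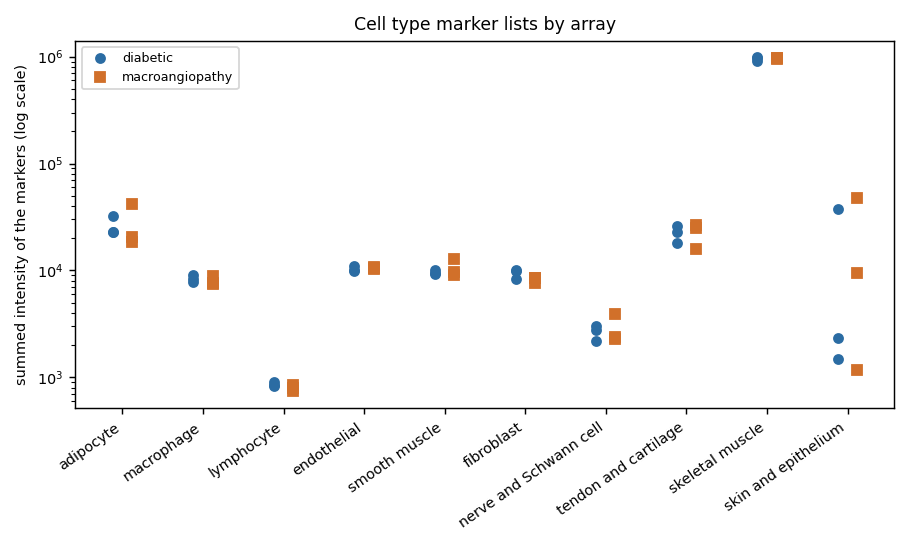
Summed intensity of each cell type's marker genes on a log axis, for the 3 diabetic arrays (circles) and the 3 macroangiopathy arrays (squares). Skin and epithelial markers range from 1180 to 47700 with the highest sums on array 2 of each group, while skeletal muscle markers lie between 916000 and 984000.

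In group C against group A, 990 of 13685 genes passed at an unadjusted P value below 0.05 (limma), which is 7.23%. Of these, 519 were higher in group C (3.79% of the genes tested) and 471 were lower (3.44%). After Benjamini-Hochberg adjustment 2 genes passed (0.0146%), Psme3 and Foxq1, both higher. These P values set the group difference against the spread within groups of 3 mice. The groups lie on different slides, so that difference can also hold a slide effect, which the P values do not separate. The arrays of the groups did not overlap for 1916 genes (14%), 960 of them higher (7.01%) and 956 lower (6.99%), and the median log2 difference over all genes was -0.0046. With slide as a fixed block in the 12 arrays 907 genes passed (6.63%), 485 higher (3.54%) and 422 lower (3.08%), with 3 after adjustment (0.0219%), and 221 of the 990, or 22.3%, passed there in the same direction. Without SHENQI array 3 the block gave 897 genes (6.55%), 174 of the 990 passed in the same direction, and 147 passed in both of these fits. Without array 2 of both groups 1291 genes passed (9.43%), 524 higher (3.83%) and 767 lower (5.6%), with 1 after adjustment (0.00731%), and 577 of the 990 passed in the same direction. Genes are described below as rising or falling where they passed at the unadjusted threshold, and with slide as a block or without array 2 they are said to pass where they met the same threshold in the same direction. A share of members near 7.23% is no more than the background. For counts in 1 direction the background is 3.79% for genes that rose and 3.44% for genes that fell.

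Leaving out predicted-gene and clone symbols, the 12 largest increases without overlap were those of Psme3, Tas1r3, Pigm, Foxq1, Gata1, Tcl1b2, Tmem59l, Leo1, Bdkrb1, Pitrm1, Cnga2 and Neto2. Psme3 encodes the PA28 gamma activator of the nuclear proteasome. It was at 12.31, 12.25 and 12.20 on the diabetic arrays and at 14.18, 13.92 and 13.99 on the macroangiopathy arrays, a 3.42-fold increase (log2 difference 1.77 ± 0.09 (SE), adjusted P = 0.00225). All 3 values of group C lie far above those of group A. Its probe lies on chromosome 11 at 101184185 to 101184245 (mm9, the build of the array files). In the SHENQI group Psme3 was at 12.41 on slide 1, the slide of the diabetic arrays, and at 14.51 and 14.70 on slide 2, and with slide as a block the difference was -0.40 and was not called. The proteasome activator subunits Psme1 and Psme2, which were looked up after this value was seen, differed by -0.14 (adjusted P = 0.736) and -0.07 (adjusted P = 0.911).

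Foxq1, a forkhead transcription factor, was at 7.94, 8.10 and 8.07 in group A and 9.05, 8.98 and 9.21 in group C (log2 difference 1.04 ± 0.09 (SE), adjusted P = 0.0472). These groups do not overlap either, but the SHENQI arrays were at 8.21 on slide 1 and 9.40 and 9.24 on slide 2, and the difference with slide as a block was -0.13 and was not called. Gata1, the erythroid transcription factor, was at 6.79, 6.50 and 6.45 in group A and 7.46, 7.29 and 7.99 in group C. Bdkrb1, the bradykinin B1 receptor, rose by 0.92, and Cnga2, a cyclic nucleotide-gated channel subunit, by 0.83. With slide as a block these 3 differences were -0.32, -0.13 and -0.32, each of the opposite sign. Tmem59l, a transmembrane protein gene, rose by 0.94, was well above background on 1 of the 3 diabetic arrays, and also turned negative with the slide block (-0.06). Tas1r3, a subunit of the sweet and umami taste receptors, rose by 1.24 and Neto2, an auxiliary subunit of kainate receptors, by 0.83, and both kept their sign but not their call. Of the 12, only Pitrm1, a mitochondrial peptidase, passed with the slide block (0.46). It was at 7.70, 7.76 and 7.75 in group A and 8.47, 8.36 and 8.92 in group C.

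Leo1, a component of the PAF1 transcription elongation complex, rose by 0.93, and macroangiopathy array 3 was the highest of its 6 values at 8.30. Tcl1b2 was not well above background on any diabetic array, so its increase is a bound: it was at least 1.81-fold higher in group C (adjusted P = 0.468). Pigm, a mannosyltransferase of GPI anchor synthesis, was dim, at 4.10, 4.45 and 5.07 in group A and 5.62, 5.56 and 5.79 in group C, and its difference of 1.12 changed to -0.16 with Agilent's processed signal and to -0.0038 in the table of the authors.

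**Figure D2:**
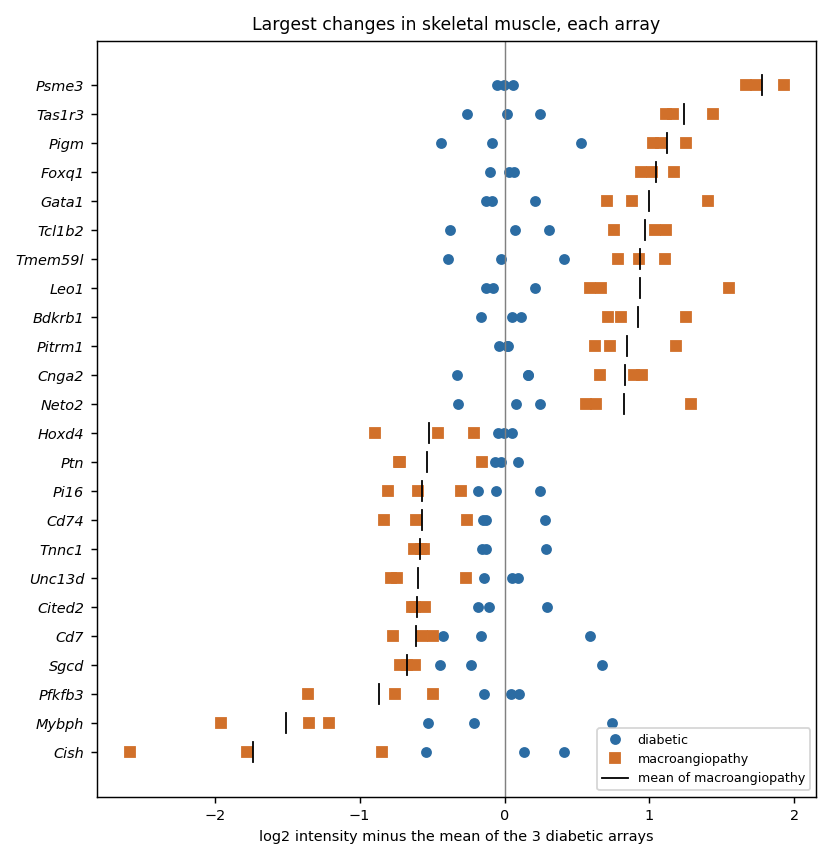
Each array's log2 intensity minus the mean of the 3 diabetic arrays, for the 12 largest increases and the 12 largest decreases without overlap; circles are diabetic arrays, squares macroangiopathy arrays and the bar their mean. The mean differences run from 1.77 for Psme3 to -1.74 for Cish, and the widest spread among macroangiopathy arrays is that of Cish.

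**Figure D3:**
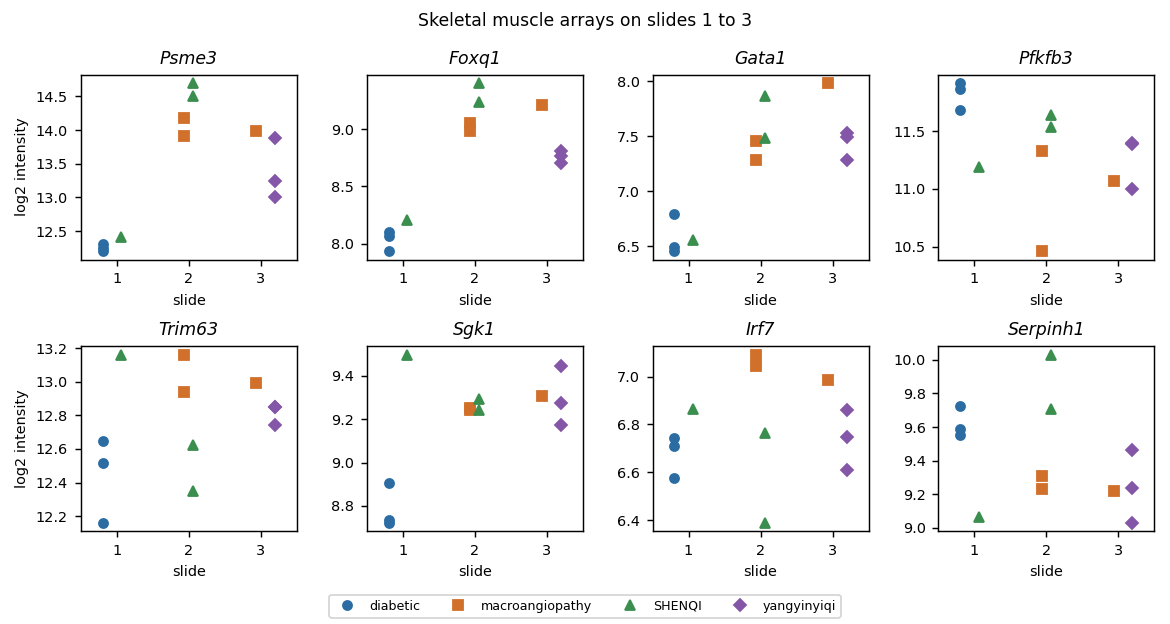
Log2 intensity of 8 genes on the 12 skeletal muscle arrays of slides 1 to 3, with 1 symbol per group. For Psme3, Foxq1 and Gata1 the SHENQI array of slide 1 lies near the diabetic arrays of that slide, and for Sgk1, at 9.50, it lies above all of them.

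By the same rule the 12 largest decreases were those of Cish, Mybph, Pfkfb3, Sgcd, Cd7, Cited2, Unc13d, Tnnc1, Cd74, Pi16, Ptn and Hoxd4, and every one of them kept its sign with the slide block. Cish encodes an SH2 protein that is induced by STAT5 and restrains cytokine receptors. It was at 10.34, 11.01 and 11.29 in group A and 9.10, 10.04 and 8.29 in group C, a 3.33-fold decrease (log2 difference -1.74 ± 0.44 (SE), adjusted P = 0.598), with the lowest value on macroangiopathy array 3. With the slide block it was -1.63 and was not called. Mybph, a myosin-binding protein of skeletal muscle, was at 11.67, 12.62 and 11.35 in group A and 10.53, 9.92 and 10.67 in group C, a 2.84-fold decrease (-1.51 ± 0.34 (SE), adjusted P = 0.571). Its highest value was that of diabetic array 2, and without array 2 of both groups the difference was -0.91.

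Pfkfb3, which makes the fructose 2,6-bisphosphate that activates glycolysis, was at 11.86, 11.68 and 11.92 in group A and 11.33, 10.46 and 11.06 in group C (-0.87 ± 0.21 (SE), adjusted P = 0.576). It passed with the slide block as well (-1.32), and so did Cited2, a CBP/p300-binding transcriptional regulator (-0.60 without and -0.73 with the block), Unc13d, a priming factor of granule release (-0.60 and -0.62), Pi16, a marker of fibroblasts (-0.57 and -1.49), Hoxd4, a homeobox gene (-0.52 and -1.26), and Cd7, a surface protein of T cells (-0.61 and -1.02). All of these except Cd7 also passed with the block without SHENQI array 3. Sgcd, which encodes delta-sarcoglycan of the dystrophin complex, fell by 0.67 and Ptn, the growth factor pleiotrophin, fell by 0.54. Diabetic array 3 was the highest for Sgcd and diabetic array 2 for Cd7, and without array 2 of both groups Cd7 differed by -0.24 and was not called.

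Of 27 genes of nitric oxide and endothelin signalling tested, 2 rose and 1 fell, and their median difference was -0.0028. Without array 2 of both groups none of the called genes passed. Nos1, the neuronal synthase, rose by 0.31 (adjusted P = 0.689). It was at 8.93, 8.90 and 9.19 in group A and 9.25, 9.17 and 9.55 in group C, so the groups overlapped, and with the slide block the difference was -0.01. Gucy1b1, the beta subunit of soluble guanylate cyclase, was at 7.83, 7.57 and 7.57 in group A and 7.86, 7.92 and 7.96 in group C (0.26 ± 0.10 (SE), adjusted P = 0.657). Slc7a2, a transporter of arginine, fell from 6.68, 7.03 and 6.47 in group A to 6.17, 6.26 and 6.45 in group C (-0.43 ± 0.15 (SE), adjusted P = 0.64), and passed with the slide block (-0.79). The endothelial synthase Nos3, given here because it is a target of L-NAME, differed by 0.12 (adjusted P = 0.823) in muscle, and the endothelin gene Edn1 by 0.03 (adjusted P = 0.971). Of 11 renin-angiotensin genes only Anpep, an aminopeptidase, was called, and it fell by 0.32.

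Counts of called genes in the lists of fat metabolism stand beside 7.23% of all genes, 3.79% higher and 3.44% lower. Of 30 genes of fatty acid oxidation 0 rose and 2 fell, 7 had a positive difference, and the median was -0.098. The isomerase gene Eci2 fell by 0.17 and Cpt1a, the liver form of carnitine palmitoyltransferase, fell by 0.24. Cpt1a was also the only called gene among 22 PPAR targets, of which 4 had a positive difference, with a median of -0.13. The medians of the oxidation genes and the PPAR targets were -0.22 and -0.29 with the slide block. The fit with the block includes SHENQI array 3, the array with high adipocyte signal. Without array 2 of both groups the medians of the 2 lists were -0.044 and -0.043. The muscle form Cpt1b differed by -0.11 (adjusted P = 0.863), the fatty acid transporter Cd36 by 0.05 (adjusted P = 0.904) and Ucp3 differed by -0.15 (adjusted P = 0.923). Pdk4, the kinase that restrains pyruvate oxidation, was at 14.44, 14.88 and 14.58 in group A and 14.96, 13.31 and 14.21 in group C (adjusted P = 0.815). Its values overlapped, and macroangiopathy array 2 was the lowest. These 4 were named for their role, not by their change. Among 30 genes of lipid uptake and storage 7 had a positive difference, and the median was -0.071. Vldlr, the receptor that binds triglyceride-rich lipoproteins, was the only one called. It was at 12.19, 12.06 and 12.16 in group A and 12.67, 12.60 and 12.63 in group C, a 1.41-fold increase (0.50 ± 0.07 (SE), adjusted P = 0.382). The groups did not overlap, and with the slide block the difference was 0.27 and was not called. Of 18 genes of fatty acid synthesis 2 fell and 4 had a positive difference, with a median of -0.091. Srebf1, the transcription factor that drives them, fell by 0.32, and the elongase Elovl5 fell by 0.37. Of 24 genes of cholesterol synthesis Insig1 alone was called, at -0.17.

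Several genes of glycogen handling rose. Of 42 genes of glycolysis and glycogen, 4 rose and Pfkfb3 fell, which is 5 of 42 beside 7.23% of all genes, and their median was 0.020. Ppp1r3c, which targets protein phosphatase 1 to glycogen, was at 10.53, 10.70 and 10.53 in group A and 11.20, 10.98 and 11.38 in group C (0.60 ± 0.12 (SE), adjusted P = 0.468). Phka1, the muscle regulatory subunit of phosphorylase kinase, was at 7.92, 8.05 and 7.89 in group A and 8.60, 8.46 and 8.23 in group C (0.47 ± 0.11 (SE), adjusted P = 0.576). Neither gene had an overlap between groups, and with the slide block the differences were 0.67 and 0.41 and were not called. Without SHENQI array 3 that of Ppp1r3c was 0.34. Ugp2, which makes UDP-glucose, rose by 0.29 and Gbe1, the glycogen branching enzyme, by 0.30. With the slide block these differences were 0.16 and -0.086 and were not called, so Gbe1 changed sign. Without SHENQI array 3 they were 0.015 and -0.10. Of 35 genes of insulin signalling and glucose transport 2 rose, the Rab GTPase-activating protein gene Tbc1d1 by 0.44 (adjusted P = 0.618) and the catalytic subunit Pik3ca by 0.20, while the glucose transporter Slc2a4 differed by 0.02 (adjusted P = 0.962).

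**Figure D4:**
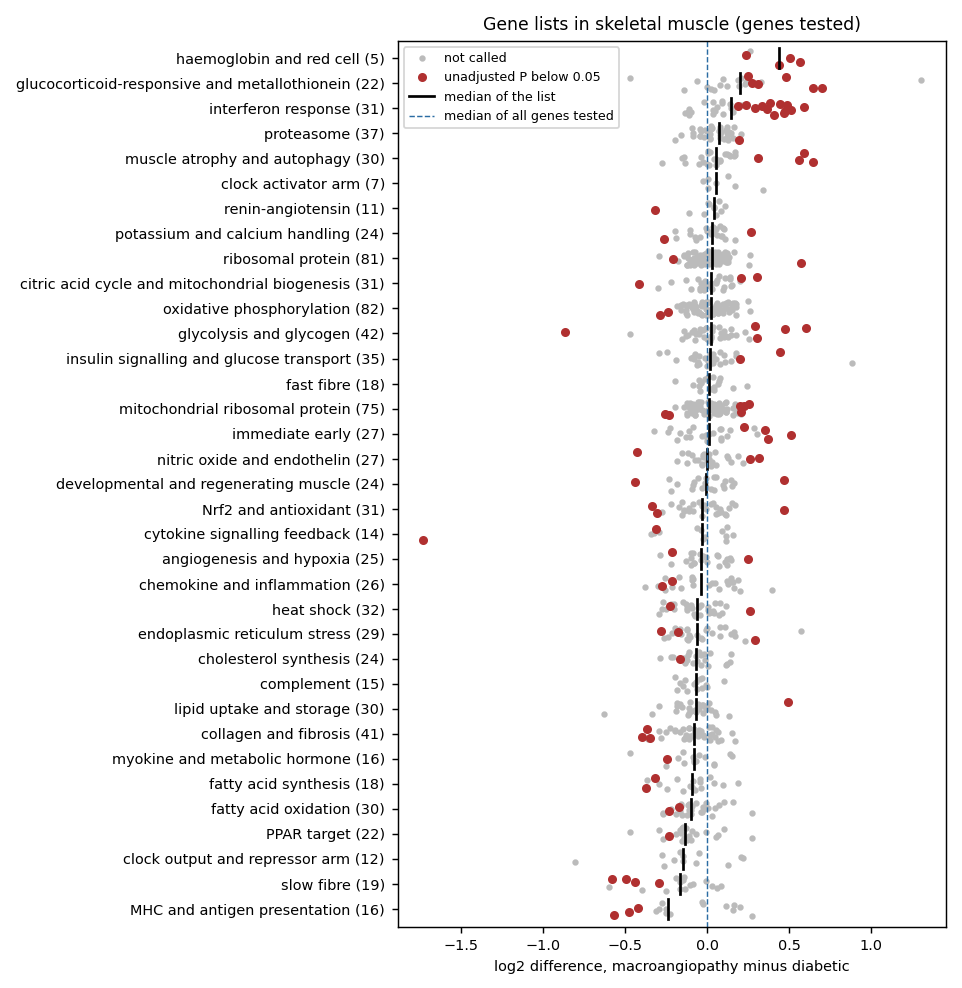
Log2 difference of every tested member of the 35 functional lists, with the number of genes tested in brackets; red points passed at an unadjusted P value below 0.05, the bar is the list's median and the dashed line the median of all genes. Haemoglobin, glucocorticoid-responsive and interferon genes have the highest medians (0.44, 0.20 and 0.15), and MHC and slow fibre genes the lowest (-0.24 and -0.17).

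Of 19 slow fibre genes tested 0 rose and 4 fell, beside 3.44% of all genes lower. In this list 3 genes had a positive difference, and the median was -0.17, between -0.20 and -0.16 over the scalings tried. Tnnc1, slow troponin C, was at 13.79, 13.76 and 14.20 in group A and 13.36, 13.34 and 13.29 in group C (-0.58 ± 0.13 (SE), adjusted P = 0.555). Tnni1, slow troponin I, was at 13.57, 13.48 and 13.96 in group A and 12.95, 13.16 and 13.40 in group C (-0.50 ± 0.16 (SE), adjusted P = 0.619). In both genes diabetic array 3 was the highest and every macroangiopathy array lay below every diabetic array. Myh7, the slow myosin heavy chain, fell by 0.30 and Myl2, the slow regulatory light chain, fell by 0.44. Only Myl2 passed with the slide block (-0.67), where the list's median was -0.15. The number that fell was 2 without diabetic array 3 or macroangiopathy array 1, 6 without diabetic array 2 and 9 without macroangiopathy array 3. None of 18 fast fibre genes was called, and the largest difference among them was that of Myh1, the fast 2X myosin, at 0.24 (adjusted P = 0.763). Some of them lie at the top of the scale, where quantile normalization sets values by rank. Mylpf was at 17.39 on all 3 macroangiopathy arrays and at 17.45, 17.39 and 17.45 in group A. For such genes the lack of a call says little. Of 24 genes of developing and regenerating muscle, the myogenic factor Myod1 rose by 0.47 and the embryonic myosin Myh3 fell by 0.44.

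Of 30 genes of muscle atrophy and autophagy 4 rose and 0 fell, beside 3.79% of all genes higher. Among those that rose were the ubiquitin ligase genes Fbxo32 and Trim63. The related ligase genes Trim54, Trim55, Fbxo30 and Fbxo31 were not called. Fbxo32, which encodes atrogin-1, was at 11.16, 11.39 and 11.05 in group A and 11.76, 11.61 and 11.91 in group C, a 1.48-fold increase (0.56 ± 0.12 (SE), adjusted P = 0.555). Trim63, which encodes MuRF1, was at 12.65, 12.51 and 12.16 in group A and 12.94, 13.16 and 12.99 in group C, a 1.5-fold increase (0.59 ± 0.14 (SE), adjusted P = 0.576). Neither had an overlap, and both passed with the slide block (0.56 and 1.28). On the SHENQI arrays Trim63 was at 13.16 on slide 1 and 12.62 and 12.35 on slide 2, and its blocked difference rests on these values. Of 22 glucocorticoid-responsive and metallothionein genes 6 rose and 0 fell, beside 3.79% of all genes higher. The median of the list was 0.20, between 0.18 and 0.24 over the scalings. Cebpd, a C/EBP transcription factor, was at 11.03, 10.99 and 10.92 in group A and 11.51, 11.85 and 11.69 in group C (0.70 ± 0.10 (SE), adjusted P = 0.382). Sgk1, the serum- and glucocorticoid-regulated kinase, was at 8.91, 8.73 and 8.72 in group A and 9.25, 9.24 and 9.30 in group C (0.48 ± 0.08 (SE), adjusted P = 0.414). For both genes every macroangiopathy array lay above every diabetic array.

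The transcription factor genes Klf9 and Klf15 rose by 0.27 and 0.31. With Cebpd and Sgk1 they also passed with the slide block (0.79, 0.51, 0.75 and 0.69), Cebpd not without SHENQI array 3. On the SHENQI arrays Klf9 was at 11.03 on slide 1 and 10.39 and 10.58 on slide 2. Ddit4, an inhibitor of mTORC1, rose by 0.65, but its groups overlapped and it was -0.30 with the block. Klf15 and Ddit4 are members of both lists. Tsc22d3, also called GILZ, rose by 0.25. Fkbp5, another glucocorticoid-induced gene, differed by 0.20 (adjusted P = 0.799) and Per1 by 0.21 (adjusted P = 0.881), both named for their role. The largest difference in the list was that of the metallothionein Mt4, at 5.85, 8.75 and 6.25 in group A and 7.78, 11.11 and 5.89 in group C, which was not called and was highest on the 2 arrays with the most skin marker signal; the part of those cells was not tested. The number of glucocorticoid-responsive genes that rose was 11 without macroangiopathy array 1 and 2 without macroangiopathy array 2 or 3, and the number of atrophy genes that rose was 2 without macroangiopathy array 3. Without array 2 of both groups 2 of the 6 called glucocorticoid-responsive genes and 2 of the 4 called atrophy genes passed. Klf9, Klf15 and Ddit4 did not pass there.

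Of 31 interferon-stimulated genes tested, 13 rose and 0 fell beside 3.79% of all genes higher, and the median was 0.15. Between 7 and 14 rose over the scalings, with medians from 0.073 to 0.23. The increases were small, from 0.19 for Oas1a to 0.59 for Isg15. Promoters of 3 of them are shown because they hold the core of the interferon-stimulated response element, a pair of GAAA tetramers with 2 bases between them, in capitals (searched on both strands, with overlapping matches run together). The sequences are the 250 bases before the annotated start (RefSeq, GRCm38.p6), 5′ to 3′ in the direction of the gene.
Isg15, chr4:156200819-156201068, - strand: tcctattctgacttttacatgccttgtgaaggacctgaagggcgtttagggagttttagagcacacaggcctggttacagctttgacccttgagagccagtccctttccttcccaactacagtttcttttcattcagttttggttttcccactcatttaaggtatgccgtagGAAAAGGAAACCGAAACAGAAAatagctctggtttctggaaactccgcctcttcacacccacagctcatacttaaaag
Rsad2, chr12:26456453-26456702, - strand: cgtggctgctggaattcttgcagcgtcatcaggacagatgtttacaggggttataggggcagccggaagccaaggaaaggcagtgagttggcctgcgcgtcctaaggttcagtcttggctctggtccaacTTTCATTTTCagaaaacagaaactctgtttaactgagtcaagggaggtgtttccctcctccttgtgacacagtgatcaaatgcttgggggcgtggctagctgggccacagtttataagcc
Ifit3, chr19:34583279-34583528, + strand: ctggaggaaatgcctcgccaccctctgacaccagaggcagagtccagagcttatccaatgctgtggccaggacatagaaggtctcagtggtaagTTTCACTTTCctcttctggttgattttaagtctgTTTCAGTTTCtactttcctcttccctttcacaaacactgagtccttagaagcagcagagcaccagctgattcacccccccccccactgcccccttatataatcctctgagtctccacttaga
In windows of 300 bases around the start, 7 of the 11 called genes with a promoter in the table held this core, 6 of 13 that were not called did, 372 of the 10605 tested genes with a promoter did (3.51%), and 3.44% of all 32851 promoters did. The core was chosen after the values of these genes were seen, and a match is a description of the letters. Of 3 other motifs searched on both strands in the same windows, the E-box CACGTG was in 4 of 9 promoters of the 12 largest decreases and 1 of 9 of the largest increases (11.5% of tested genes), and the others were the D-box TTATGNAA, in 1 and 0 of 9 (2.56%), and the half-site AGGTCA, in 2 and 1 of 9 (15.4%).

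Isg15, a ubiquitin-like modifier, was at 6.85, 6.99 and 6.55 in group A and 7.45, 7.64 and 7.07 in group C (0.59 ± 0.17 (SE), adjusted P = 0.618). Rsad2, the antiviral protein viperin, was at 6.85, 6.67 and 6.59 in group A and 7.25, 7.11 and 7.08 in group C (0.44 ± 0.09 (SE), adjusted P = 0.555). Irf7, the transcription factor that amplifies type I interferon, was at 6.74, 6.71 and 6.58 in group A and 7.04, 7.09 and 6.99 in group C (0.36 ± 0.08 (SE), adjusted P = 0.555). In all 3 genes every macroangiopathy array lay above every diabetic array. Ifit3 rose by 0.51 and Oas2, a 2′,5′-oligoadenylate synthetase, by 0.33. Irf7, Oas2, Isg15 and Bst2 were the 4 of the 13 that also passed with the slide block, in which the median of the list was 0.15. Without SHENQI array 3 Oas2 no longer passed with the block and the other 3 did. Oas1a and Irf9, also among the 13, changed sign with the block (-0.21 and -0.066). They were -0.31 and -0.11 with the block without SHENQI array 3. Without array 2 of both groups 6 of the 13 passed, with a median of 0.16. The number that rose was 7 without diabetic array 3 or macroangiopathy array 1 and 8 without macroangiopathy array 2, and 11 or 12 without each of the other 3 arrays.

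Of 16 genes of the MHC and antigen presentation 3 fell and 0 rose, beside 3.44% of all genes lower. The 3 that fell are all of the class II pathway. Cd74, the invariant chain, was at 11.35, 11.76 and 11.33 in group A and 10.87, 11.22 and 10.64 in group C (-0.57 ± 0.17 (SE), adjusted P = 0.618). H2-Aa was at 8.24, 8.55 and 8.36 in group A and 7.84, 8.16 and 7.71 in group C (-0.48 ± 0.14 (SE), adjusted P = 0.618) and H2-Eb1 fell by 0.42. Their arrays did not overlap, and H2-Aa and H2-Eb1 passed with the slide block (-0.90 and -0.92). On the SHENQI arrays H2-Eb1 was at 8.56 on slide 1 and 8.73 and 9.50 on slide 2, the highest on array 3, and without that array the blocked differences were -0.62 for H2-Aa, which passed, and -0.54 for H2-Eb1, which did not, and the median of the list was 0.032. Without macroangiopathy array 2, 5 genes of the list fell, and without diabetic array 2, macroangiopathy array 1 or macroangiopathy array 3, 2 fell. Of 10 macrophage markers 3 fell, beside 3.44% of all genes lower. Cd68 fell by 0.33, Cd14, a coreceptor for lipopolysaccharide, fell by 0.19 and Csf1r, the receptor of the growth factor of macrophages, fell by 0.16. The summed macrophage markers were 7720 to 9050 in group A and 7410 to 8890 in group C, and overlapped, with 10 of 10 markers above background on every array, and none of the 10 was called without diabetic array 3 or macroangiopathy array 1, and 1 without macroangiopathy array 3. Of 6 lymphocyte markers tested 2 fell, Jchain and Ptprc, with sums of 824 to 910 and 744 to 855. In bulk muscle fewer cells of a type and less RNA per cell cannot be told apart. Of 26 chemokine and inflammation genes 2 fell. Nfkb2 fell by 0.22 and Ccl9 fell by 0.27, and none of 15 complement genes was called.

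**Figure D5:**
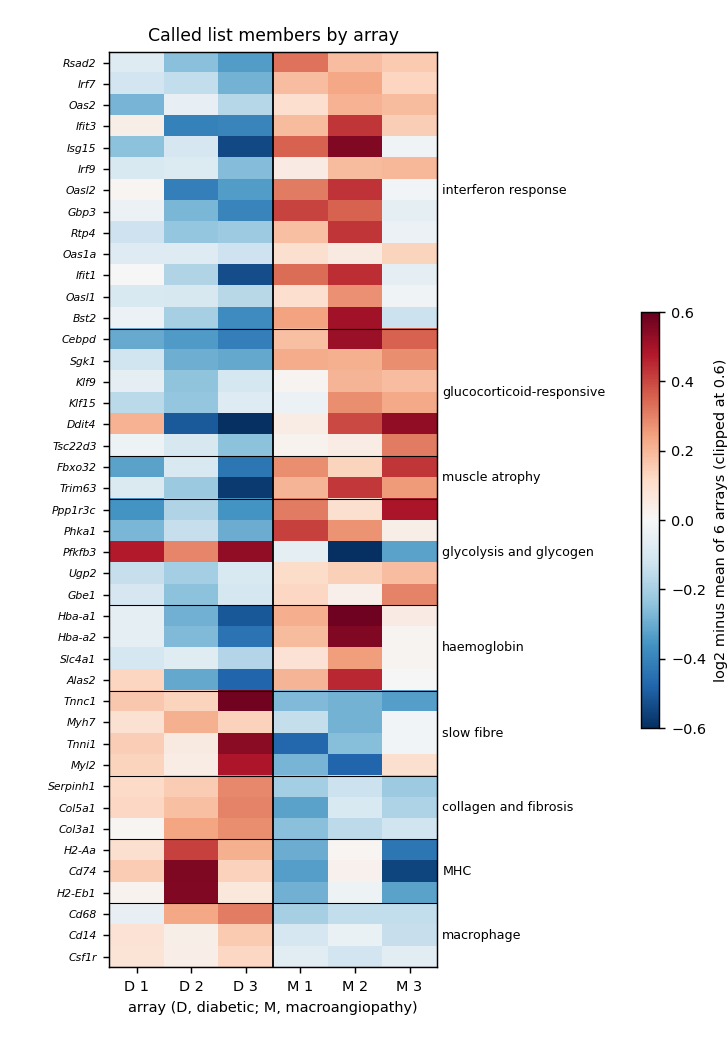
Log2 intensity of the called members of 9 lists on each array, minus the mean of the 6 arrays, in red where higher and blue where lower (clipped at 0.6). Interferon genes are highest on macroangiopathy array 2 for Isg15, Ifit1 and Bst2, and Tnnc1, Tnni1 and Myl2 are highest on diabetic array 3.

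Of 41 genes of collagen and fibrosis 3 fell and 0 rose, beside 3.44% of all genes lower. The median of the list was -0.079, between -0.13 and -0.062 over the scalings. Serpinh1, the collagen chaperone HSP47, was at 9.55, 9.59 and 9.72 in group A and 9.23, 9.31 and 9.22 in group C (-0.37 ± 0.08 (SE), adjusted P = 0.555). Col5a1 was at 8.51, 8.57 and 8.69 in group A and 8.07, 8.30 and 8.20 in group C (-0.40 ± 0.09 (SE), adjusted P = 0.571), and Col3a1 fell by 0.35. None of the 3 had an overlap, and Serpinh1 and Col3a1 passed with the slide block (-1.15 and -0.92). On the SHENQI arrays Serpinh1 was at 9.07 on slide 1 and 10.03 and 9.71 on slide 2. The number that fell was 6 without diabetic array 2, 7 without macroangiopathy array 3 and 3 or 4 without any other array. Of 8 fibroblast markers Col3a1 and Pi16 fell, and the summed markers were 8290 to 10000 in group A and 7670 to 8590 in group C. Of 25 genes of angiogenesis and hypoxia the VEGF receptor Flt1 rose by 0.25 and Vegfd fell by 0.21.

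Of 5 haemoglobin and red cell genes tested, 4 rose, beside 3.79% of all genes higher, and the median of the list was 0.44. The alpha globin Hba-a1 was at 13.50, 13.26 and 13.05 in group A and 13.77, 14.14 and 13.60 in group C (0.57 ± 0.17 (SE), adjusted P = 0.618). Macroangiopathy array 2 was the highest, and the groups did not overlap. Hba-a2, a nearly identical copy whose probes may share signal with it, rose by 0.51, Slc4a1, the anion exchanger of red cells, by 0.24 and Alas2, the erythroid enzyme of haem synthesis, by 0.44. Hba-a1 and Hba-a2 passed with the slide block, and neither did without SHENQI array 3. The count of 4 was 1 without diabetic array 3 and 2 without macroangiopathy array 1 or 2. Without array 2 of both groups 1 of the 4 passed.

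Of 27 immediate early genes 4 rose and 0 fell, beside 3.79% of all genes higher, and 2 rose without diabetic array 3. Gadd45b, a stress-induced gene, was at 10.35, 10.24 and 10.22 in group A and 10.91, 10.72 and 10.72 in group C (0.51 ± 0.08 (SE), adjusted P = 0.414). Klf2 rose by 0.35, Zfp36 by 0.22 and Ccn1 by 0.37. Of 14 genes of cytokine feedback 2 fell, Cish and the transcription factor gene Stat3 (-0.31). No core clock gene was called among 7 of the activator arm or 12 of the output and repressor arm. The largest difference there was that of Dbp, a PAR bZIP transcription factor, at 14.39, 13.23 and 14.19 in group A and 12.22, 13.59 and 13.59 in group C (-0.81 ± 0.44 (SE), adjusted P = 0.736), with overlap. Without array 2 of both groups Dbp differed by -1.39 and Arntl, the activator BMAL1, by 0.64, against 0.34 with all 6 arrays, and both passed the unadjusted threshold there.

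Of 29 genes of endoplasmic reticulum stress Atf4 rose by 0.29, and the folding proteins Pdia4 (-0.28) and Manf (-0.18) fell. Of 32 heat shock genes Hsf2 rose by 0.26 and Hspb1 fell by 0.23. Of 31 Nrf2 and antioxidant genes Hmox1, haem oxygenase 1, rose by 0.47, while Gpx3 (-0.30) and Prdx5 (-0.34) fell. Gpx3, Pdia4 and Atf4 passed with the slide block, Atf4 not without SHENQI array 3.

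Of 82 genes of oxidative phosphorylation 0 rose and 2 fell, Atp5e and Cox6b1, with a median of 0.020. Of 81 ribosomal protein genes 1 rose, Rpl21, and 1 fell, Rpl3l, with a median of 0.026. Of 75 mitochondrial ribosomal protein genes 4 rose and 2 fell, and of 37 proteasome genes Psma3 alone rose, by 0.20. Of 31 genes of the citric acid cycle and mitochondrial biogenesis Tfam, the mitochondrial transcription factor, rose by 0.30, Sucla2 rose by 0.21 and Nnt, the transhydrogenase, fell by 0.42. Tfam was -0.14 with the slide block. Of 24 genes of potassium and calcium handling Kcnj11, a subunit of the ATP-sensitive potassium channel, rose by 0.27 and passed with the slide block. Of 16 myokine genes Fgf2 fell by 0.24. None of the adipocyte, brown adipocyte, endothelial, smooth muscle, Schwann cell or skin markers was called, and of 10 tendon and cartilage markers Col2a1 rose and Cilp fell.

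The same contrast in aorta gave 586 of 15374 genes at the unadjusted threshold (3.81%), 329 higher (2.14%) and 257 lower (1.67%), and, in limma, 0 after adjustment. The diabetic aorta arrays lay on slides 5 and 11 and the macroangiopathy aorta arrays on slide 6, so slide and group cannot be told apart in aorta, nor in the comparison of the tissues. Skeletal muscle markers had a median difference of -1.42 in aorta, fast fibre genes -1.80 and slow fibre genes -1.36, with 0 of them called, and the part of striated muscle RNA in the values below was not tested. Of the 990 genes called in muscle, 949 were tested in aorta, where 490 had the same sign and 34 passed in the same direction. The same shares over all genes were not counted, so these counts do not show that the tissues agree. The difference between the tissues was tested itself as an interaction in 12 arrays, and 685 of 15693 genes passed unadjusted (4.37%), 371 of them higher in muscle (2.36%) and 314 lower (2%), and 0 after adjustment in limma. Cited2 fell in muscle (-0.60) and was 0.33 in aorta, a difference of -0.94 between tissues (adjusted P = 0.597). Serpinh1 and Col5a1 were -0.37 and -0.40 in muscle and 0.37 and 0.32 in aorta (adjusted P = 0.78 and adjusted P = 0.64). Ppp1r3c was 0.60 in muscle and -0.53 in aorta (adjusted P = 0.675). All of these genes were picked because they passed in muscle. That difference enters the interaction, so the test is no separate support for them. The interferon list had a positive median in both tissues, with a median of 0.22 and 2 of 31 genes higher in aorta, and 1 of its genes, Ifih1, which was looked up after its value was seen, passed the interaction test at the unadjusted threshold.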

How the data were processed

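The authors labelled RNA of skeletal muscle and aorta, from 3 mice per group, for single-colour Agilent arrays. The deposited scanner output (Agilent Feature Extraction 10.7.3.1) gives the median intensity of 45018 spots and their local background, while a second deposited table holds normalized log2 values of 41267 probes. The median intensity was corrected with normexp (limma 3.58.1, R 4.3.3, offset 0), quantile normalized over the 42 arrays, put on the log2 scale, and averaged over spots and then over the probes of a gene symbol (21123 genes). Irregular spots were set to missing. Of 41174 probes, 27479 were named through a transcript accession, 5478 by symbol, 679 by synonym and 1221 by the file's own name, and 6317 had no name. Testing was limited to genes with a probe called well above background by the scanner software on every array of 1 group compared or more. Groups were fitted with lmFit and eBayes, P values were adjusted with Benjamini-Hochberg over all genes, and calls were made at 0.05 on the unadjusted scale, as in the methods of the study, and at 0.05 after adjustment.

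Genes named were the 12 largest increases and decreases at the unadjusted threshold without overlap and well above background where higher (predicted-gene, Rik and other clone symbols left out), and up to 4 called members of each of 46 gene lists with the smallest P values. For lists with none called, the member with the largest change was followed. Members, lists and tests were chosen with earlier results of these data known. Genes named for their role, the response element and the fits without array 2 of both groups and without SHENQI array 3 were chosen after the values were seen. Replicate numbers were not used as pairs. The fits were tested on simulated data. Alternatives were the background correction, the processed signal, the authors' table, normalization over muscle arrays, filters, the brightest probe, irregular spots, the arrays in the fit, slide as a block, eBayes options, a replicate block and each array left out. Figures were drawn with Python 3.11.15 and matplotlib 3.10.9. The result of 1 gene is not reported here.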

Additional observations from a re-analysis of the deposited data

Results flagged for a closer look

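In 13 named genes that passed in muscle the sign in aorta was the opposite and the interaction test passed at the unadjusted threshold, while none passed after adjustment over all genes (adjusted P of at least 0.434). The genes were named because they passed in muscle, and the interaction holds that same muscle difference. The test therefore favours such genes and is no separate support. Of the 990 genes called in muscle 164 passed it, beside 4.37% of all genes. Higher in muscle relative to aorta were Psme3 (difference between tissues 1.96), Foxq1 (1.65), Ppp1r3c (1.13), Nos1 (0.94), Ugp2 (0.75), Vldlr (0.69), Hmox1 (0.56), Flt1 (0.49), Phka1 (0.48) and Tfam (0.34). Lower in muscle relative to aorta were Cited2 (-0.94), Serpinh1 (-0.73) and Col5a1 (-0.72). In both tissues the groups lie on different slides, so for all 13 genes slide and group cannot be told apart in this comparison. Psme3, Foxq1, Nos1 and Tfam turned negative in muscle with slide as a block. Skeletal muscle markers had a median difference of -1.42 in aorta, and their part in these values was not tested.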

How the results depend on the processing

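The count of 990 genes at the unadjusted threshold was 506 in the fit of all 21 muscle arrays and 1716 with slide as a random block (correlation -0.174), lay between 649 (without macroangiopathy array 1) and 1173 (without diabetic array 2, of which 429 were higher) when 1 array was left out, and stayed within 1.5 times under the other alternatives. The 2 genes after adjustment became 3 with an offset of 50, 5 with the brightest probe, 3 with the trend and robust options, and 3 with slide as a fixed block (Myof, Arrb1 and Psmd5, which are other genes and had unadjusted P values from 0.26 to 0.967 without the block). They became 9 with that block without SHENQI array 3. They became 1 (Psme3) with local background subtracted, the processed signal, the authors' table, no filter, a replicate block or without arrays 2 of both groups, and 0 in the fits of 12 and of 21 muscle arrays. Leaving out 1 array gave 1 to 2, Psme3 passing in each of these fits and Foxq1 in none. The interaction count of 685 was 306 in the fit of all 42 arrays and 508 to 1408 with 1 array left out (1208, 1082 and 1408 without diabetic aorta 1, diabetic aorta 3 and macroangiopathy aorta 1), and its adjusted count of 0 was 0 to 1. The 97 called list members were 58 with the processed signal, 46 in the fit of 21 arrays, and 64 to 108 with 1 array left out (64 without diabetic array 3 or macroangiopathy array 1).

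All of the 103 called named genes kept their call with the random slide block. In that fit no slide held arrays of both groups, so it cannot separate slide from group. Of the 103, 59 kept their call with the processed signal and 34 with the fixed slide block, where 14 changed sign: Psme3 (-0.40), Foxq1 (-0.13), Gata1 (-0.32), Tmem59l (-0.058), Bdkrb1 (-0.13), Cnga2 (-0.32), Nos1 (-0.015), Tfam (-0.14), Ddit4 (-0.30), Hsf2 (-0.12), Col2a1 (-0.30), Rpl21 (-0.20), Atp5e (0.071) and Cox6b1 (0.037). Without SHENQI array 3 the block kept 25 calls, all among the 34, and 17 changed sign: Psme3 (-0.30), Foxq1 (-0.22), Gata1 (-0.51), Tmem59l (-0.18), Bdkrb1 (-0.36), Cnga2 (-0.35), Nos1 (-0.041), Tfam (-0.15), Ddit4 (-0.31), Hsf2 (-0.20), Col2a1 (-0.21), Rpl21 (-0.36), Pik3ca (-0.028), Myh3 (0.040), Rpl3l (0.038), Atp5e (0.024) and Cox6b1 (0.029). Pigm changed sign with the processed signal (-0.16) and in the authors' table (-0.0038), and Sucla2 (-0.058), Hsf2 (-0.15) and Mrpl3 (-0.053) with the brightest probe. The cause was not tested. The fixed block ties slides 1 and 2 through the SHENQI group alone. Same-numbered arrays of the groups correlated at 0.0024, 0.56 and 0.39 in their deviations from the group means. Diabetic array 1 and macroangiopathy array 3 correlated at 0.52. Deviations from a mean of 3 arrays depend on each other, so these values cannot decide whether the numbers pair samples. The groups hold different mice, and the numbers were not used as pairs. With the replicate block 1227 genes passed, 1 after adjustment.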
